A study of Mus musculus with 4 samples.

Results

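The Apoe-Apoc gene cluster holds 4 apolipoprotein genes that lie next to each other on mouse chromosome 7: Apoe, Apoc1, Apoc2 and Apoc4. They were found by gene symbol among the 32285 genes of the deposited count matrices, and each symbol matched 1 row. The rule itself uses no measured value, but the cluster was chosen with earlier results of these data known. Their UMIs (unique molecular identifiers, each standing for 1 captured RNA molecule) were counted in single cells of 4 libraries from mice aged 8 to 12 weeks, with 1 library per group, each from a different mouse by the series design. The injured libraries came from an IL-6 knockout-labelled (-/-) mouse and a wild-type (+/+) mouse, each with cerebrovascular injury. The sham libraries came from a knockout-labelled mouse and a wild-type mouse with sham surgery. All 4 were labelled as day 6. Injury was made through a thinned skull by pulsed ultrasound with circulating microspheres. The labels do not say which of 2 described severities each injured mouse had, so severity may differ between the injured libraries. The strain is not given either. In all 4, a 4 mm punch of brain was dissociated, myelin was removed, and cells carrying CD11b, a surface protein of myeloid cells, were selected on magnetic beads before 10x 3′ sequencing. With 1 library per group there was no replicate and no test was made: intervals in brackets are 95% intervals that cover counting error only, and every difference is between these libraries.

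Apolipoproteins are the protein part of lipoprotein particles, which carry cholesterol and other lipids between cells. Apoe is the ligand by which such particles bind receptors of the LDL receptor family, and in the brain astrocytes are its main source in health, while microglia are known to make it when they respond to damage or disease. Apoc1, Apoc2 and Apoc4 encode small proteins that sit on the same particles: Apoc2 is the activator of lipoprotein lipase, and Apoc1 restrains lipases and the receptor uptake of particles. In human macrophages the cluster is known as a target of the sterol-sensing LXR nuclear receptors, through shared enhancers next to the genes.

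In the GENCODE vM21 annotation of GRCm38, the build also called mm10 that the submitters' processing notes name, all 4 genes were on the minus strand within 27.6 kb. Apoe was at chr7:19696109-19699188, Apoc1 at chr7:19689481-19692660, Apoc4 at chr7:19678083-19681479 and Apoc2 at chr7:19671579-19677941. The gap between Apoc4 and Apoc2 was 141 bases, that between Apoe and Apoc1 3.45 kb and that between Apoc1 and Apoc4 8.00 kb. An annotated same-strand transcript, Gm44805, spans Apoc2 and most of Apoc4 and is not among the genes counted, so reads of these 2 genes may not be fully separable from it.

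The 4 genes sit close together, and in microglia-like cells all 4 had higher levels after injury than after sham surgery. Their promoters are shown as 300 bases of the minus strand, 250 before to 50 after the transcript start, from RefSeq on GRCm38.p6. Windows were found for 3 of the 4 genes (Apoe, Apoc2 and Apoc4), and for Apoe the one at the annotated gene start is given. Capitals mark matches on either strand to 8 motifs.
Apoe chr7:19699139-19699438: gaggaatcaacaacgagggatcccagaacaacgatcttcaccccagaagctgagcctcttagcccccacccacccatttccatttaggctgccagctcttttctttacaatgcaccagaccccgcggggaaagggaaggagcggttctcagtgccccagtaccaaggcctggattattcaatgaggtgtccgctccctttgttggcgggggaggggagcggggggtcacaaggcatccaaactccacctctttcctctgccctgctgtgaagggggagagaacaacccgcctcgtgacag
Apoc2 chr7:19677892-19678191: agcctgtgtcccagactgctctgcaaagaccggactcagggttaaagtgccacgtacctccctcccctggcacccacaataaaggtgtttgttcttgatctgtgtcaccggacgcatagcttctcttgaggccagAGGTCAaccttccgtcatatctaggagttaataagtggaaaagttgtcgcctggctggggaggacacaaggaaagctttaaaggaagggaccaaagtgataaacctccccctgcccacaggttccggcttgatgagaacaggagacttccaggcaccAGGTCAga
Apoc4 chr7:19681411-19681710: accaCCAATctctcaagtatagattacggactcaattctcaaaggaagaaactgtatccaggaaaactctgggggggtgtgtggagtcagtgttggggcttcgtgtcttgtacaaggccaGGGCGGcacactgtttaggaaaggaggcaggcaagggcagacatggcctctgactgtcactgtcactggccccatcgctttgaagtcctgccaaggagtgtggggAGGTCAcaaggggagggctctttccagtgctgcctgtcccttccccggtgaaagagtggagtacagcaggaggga
The AGGTCA half-site of nuclear receptors was found 2 times in the Apoc2 window and 1 time in the Apoc4 window, and 16.3% of 32851 mouse promoter windows of this length hold it. Its DR4 repeat, a pair of half-sites 4 bases apart and the form LXR binds, was in none of the 3 windows and in 0.0152% of all. The Apoc4 window also held CCAAT, found in 37.4% of all windows, and GGGCGG, found in 35.7%. The Apoe window shown held none of the 8, which further included CACGTG (7.15% of all windows), TGANTCA (7.81%), GAGGAAGT (3.2%) and TATAAA (13.6%). Of the Apoe windows not shown, that at chr7:19698572-19698871 held TATAAA. The one at chr7:19698349-19698648 held none of the motifs. These matches describe the letters of the windows and were not tested for binding.

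After filtering, 2549, 2883, 1362 and 957 cells were analysed in the knockout-labelled injured, wild-type injured, knockout-labelled sham and wild-type sham libraries, with medians between 7638 and 10016 UMIs per cell. Il6, the targeted gene, was at 22.0 and 4.65 CPM (the UMIs of a gene per 1000000 UMIs of the cells summed) in the knockout-labelled and wild-type injured libraries, and at 25.3 and 10.6 CPM in the knockout-labelled and wild-type sham libraries. It was thus higher in both libraries labelled knockout; 3′ reads may lie outside a deleted part, so the groups are named by their labels throughout. The 2 sham libraries shared 135 cell barcodes, and other pairs of libraries shared 2 to 14. Cells were put into classes by a gate on marker genes that include none of the 4 genes. It gave 5876 microglia-like cells, 217 border-associated macrophage-like cells (resident macrophages of the brain's membranes and vessels), 335 monocyte or macrophage-like cells (all but 4 in each sham library from the injured mice) and 270 endothelial-like cells, and left 814 cells ungated. By these markers the CD11b selection was mostly but not purely myeloid. Of the monocyte or macrophage-like cells 118 had a lead under 2 over the next class and so lay near the gate's limit, against 250 of the microglia-like cells.

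Apoe, the particle's receptor ligand, had one of the largest ratios of all genes between injured and sham microglia-like cells. Its level was 14436 CPM in knockout-labelled injured cells and 41656 CPM in wild-type injured cells, against 833 and 707 CPM in knockout-labelled and wild-type sham cells. The injured levels amount to 1.44% and 4.17% of all UMIs of these cells. The ratio of injured to sham was 17.3 (17.0 to 17.7) with the knockout label and 58.9 (57.4 to 60.5) in wild type. On the log2 scale with 10 CPM added to both levels these were 4.10 and 5.86, the 5th highest of 6125 and the 2nd highest of 6224 genes tested, where a gene was tested if it reached 20 CPM in 1 of the 2 libraries and 50 UMIs over all 4. The medians of all tested genes were -0.21 and -0.30.

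The sham level of Apoe in microglia-like cells was no higher than in cells that should lack it. Endothelial-like cells of the same libraries, taken as the measure of free RNA in the droplets, held 1813 and 4118 CPM in the knockout-labelled and wild-type injured libraries, and 1086 and 974 CPM in the knockout-labelled and wild-type sham libraries. Both sham microglia-like levels were below these, so no expression is read from the level of the class as a whole. Single sham cells stood far above it, with up to 1429 Apoe UMIs in a knockout-labelled and 567 in a wild-type sham cell. Injured microglia-like levels were above those of endothelial-like cells in both libraries. The endothelial-like level may hold more than free RNA. No Apoe UMI was found in 6.98% and 0% of knockout-labelled and wild-type sham endothelial-like cells, at median depths of 6171 and 5614 UMIs. In sham microglia-like cells, deeper at 8476 and 8595 UMIs, these shares were 36.7% and 38.6%. What part of the endothelial-like level is free RNA was not tested. Barcodes too shallow to be analysed held 7603 and 16766 CPM of Apoe in the knockout-labelled and wild-type injured libraries, against 4184 and 4413 CPM in the knockout-labelled and wild-type sham libraries, so free or low-quality RNA moved with injury too. Its part in the microglia-like level was not tested beyond the subtraction of the endothelial-like level, given in the closing section.

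Single cells show how the Apoe level is made up. The median microglia-like cell held 31 and 136.5 Apoe UMIs in the knockout-labelled and wild-type injured libraries, and 1 UMI in each of the sham libraries, at similar median depths of 8791 and 9013 UMIs in injured and 8476 and 8595 UMIs in sham cells. At least 1 Apoe UMI was found in 98.2% and 100% of knockout-labelled and wild-type injured cells and in 63.3% and 61.4% of knockout-labelled and wild-type sham cells. Thinned to 5000 UMIs per cell, which leaves out 374, 316, 214 and 135 shallower cells of the 4 libraries in the same order, the shares were 97.2%, 99.98%, 53.5% and 51.8%. Endothelial-like cells, of median depth 4284.5 to 6171 UMIs, held a UMI in 93.0% to 100% of cells, so a single UMI says little about expression. A stricter measure was the share of cells that gave Apoe 1% or more of their UMIs: 29.2% and 60.5% of knockout-labelled and wild-type injured cells, against 0.801% and 1.16% of knockout-labelled and wild-type sham cells.

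The few sham cells above that level were 9 of 1123 with the knockout label and 8 of 689 in wild type, and held 45.1% and 28.4% of all Apoe UMIs of their class. Without them the sham levels were 462 and 512 CPM. In wild-type sham these 8 cells had a median microglial marker score of 0.224, against 0.637 in the other cells, and led the next class by 2.84 times, against 7.02 times. The 9 knockout-labelled sham cells scored 0.479, against 0.684, and led by 6.81 times, against 7.18 times. Of the 17 cells, 3 carried a barcode that also occurred in another library.

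**Figure D1:**
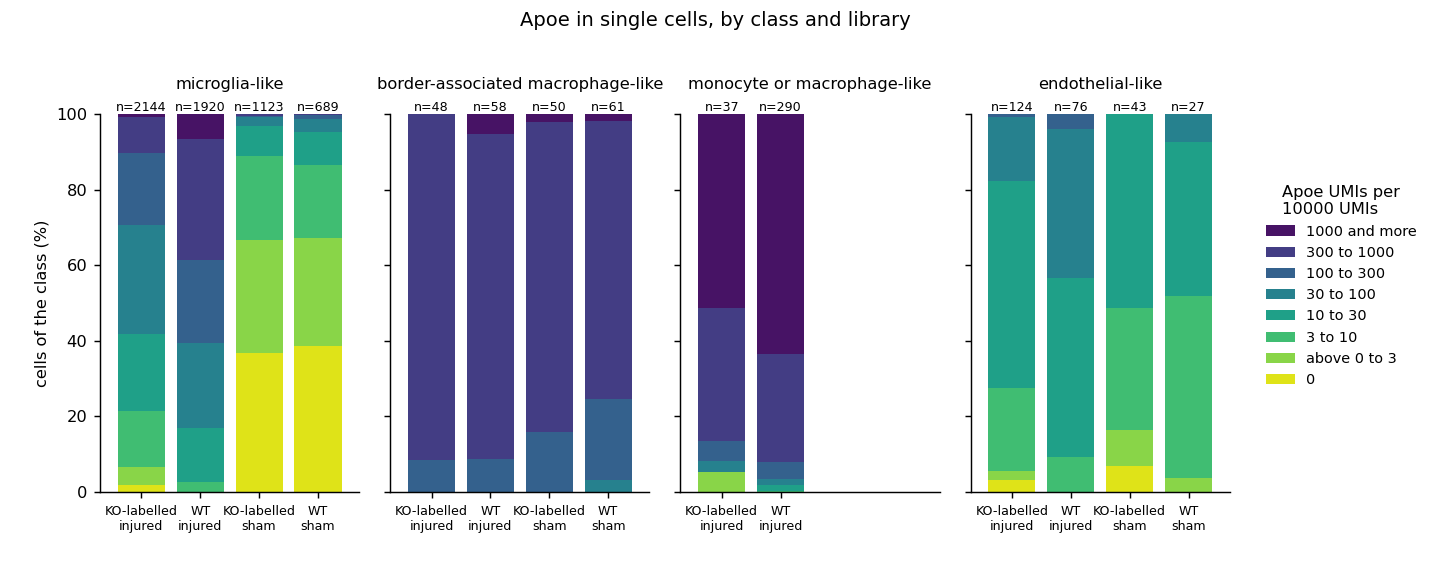
Share of cells (y axis, %) by Apoe UMIs per 10000 UMIs of the cell (colours), for 4 marker-gated classes and the 4 libraries; n is the number of cells, and classes with under 20 cells in a library are not drawn. Of the microglia-like cells 29.2% of knockout-labelled and 60.5% of wild-type injured cells have 100 or more per 10000, while 36.7% and 38.6% of knockout-labelled and wild-type sham cells have no Apoe UMI.

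Apoe in injured microglia-like cells was lower with the knockout label than in wild type. The ratio was 0.347 (0.345 to 0.348), a level 2.89-fold lower, and ranked 12th from the lowest of 5384 genes tested. The whole distribution was shifted: the 10th, 50th and 90th percentiles were 3, 31 and 425 UMIs per knockout-labelled injured cell and 10, 136.5 and 1360 UMIs per wild-type injured cell. The lowest quartile of cells by Apoe held 557 CPM with the knockout label and 2554 CPM in wild type, both below the endothelial-like level of their library. In the highest quartile the levels were 35556 and 84319 CPM in knockout-labelled and wild-type injured cells. After sham surgery the ratio of knockout-labelled to wild-type cells was 1.18, between 2 levels that were below those of endothelial-like cells, and its direction turned under other settings, given in the closing section. In endothelial-like cells of the injured libraries, Apoe was also lower with the knockout label, with a ratio of 0.440 (0.410 to 0.472).

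Summed marker levels of other cell types moved with injury inside the microglia-like class. The 12 monocyte and macrophage markers summed to 1574 and 2841 CPM in knockout-labelled and wild-type injured cells, and to 336 and 368 CPM in knockout-labelled and wild-type sham cells, led by Lyz2, a lysozyme gene that microglia also express, at 1421 and 2468 CPM in knockout-labelled and wild-type injured cells and 315 and 341 CPM in knockout-labelled and wild-type sham cells. The 11 markers of border-associated macrophages summed to 149 and 368 CPM in knockout-labelled and wild-type injured cells, against 187 and 201 CPM in knockout-labelled and wild-type sham cells. None of the 12 monocyte markers was at 0 in the injured cells or in wild-type sham cells, and 1 was at 0 in knockout-labelled sham cells. The 10 astrocyte markers summed to 156 and 110 CPM in knockout-labelled and wild-type injured cells, against 235 and 204 CPM in knockout-labelled and wild-type sham cells. The part of these cell types in the Apoe result was not tested.

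The 3 Apoc genes, whose proteins regulate lipases and uptake, were nearly undetected in sham microglia-like cells and present after injury. Apoc1, the inhibitor, had 22.2 and 138 CPM in knockout-labelled and wild-type injured cells, from 477 and 2892 UMIs, against 1.18 and 0.505 CPM in knockout-labelled and wild-type sham cells, from 13 and 4 UMIs. The ratios of injured to sham were 18.9 (10.9 to 35.7) with the knockout label and 274 (107 to 1006) in wild type. Apoc2, the lipase activator, had 25.8 and 113 CPM in knockout-labelled and wild-type injured cells, and 3 UMIs in all cells of each sham library. Its ratios, 95.1 (32.4 to 462) and 299 (102 to 1449), are therefore loosely bounded. Apoc4, whose protein is the least studied of the group, had 6.18 and 36.0 CPM in knockout-labelled and wild-type injured cells, from 133 and 752 UMIs. A single UMI of Apoc4 was found in knockout-labelled sham cells, a ratio of 68.3 (12.1 to 2719). None was found in wild-type sham cells, so the wild-type injured level was at least 95.01-fold higher, taken against a floor of 3 UMIs over that library's microglia-like cells.

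Counted by the 2-fold rule, on the scale with 10 CPM added, 3 of the 3 members tested were higher in knockout-labelled injured than in knockout-labelled sham microglia-like cells, where 2.58% of the 6125 genes tested were called higher and 1.52% lower; Apoc4 stayed under 20 CPM and was not tested. In wild type, 4 of 4 were higher, where 3.76% of 6224 genes were called higher and 8.24% lower. In sham microglia-like cells each Apoc gene was at 1.18 CPM or less, so any that reached 20 CPM was bound to be called higher. For the Apoc genes the injury counts thus add nothing to their levels, and the shares over all genes do not bear on them. Between the injured libraries, 4 of 4 were lower with the knockout label, where 0.539% of 5384 genes, 29 in all, were called lower and 0.0557% higher. Of these, Apoc4 was at 6.18 and 36.0 CPM in knockout-labelled and wild-type injured cells. It passed the minimum only through the library where it was high, so the share over all genes is no fair measure for Apoc4. After sham surgery Apoe alone was tested and was not called, where 0.0653% of 6123 genes were called higher and 0.114% lower. These comparisons share libraries and are not independent of each other. Median log2 ratios over all 4 members were 1.66 for injury with the knockout label and 3.69 for injury in wild type. The first includes the untested Apoc4. Between the injured libraries the median of the members was -1.65. Over all genes tested the medians were -0.21, -0.30 and 0.07 in the same order. Those for injury do not bear on the Apoc genes, for the reason given above.

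Between the injured libraries the Apoc genes were as far apart as Apoe or farther. Apoc1 was 6.24-fold lower (5.66 to 6.89) with the knockout label, Apoc2 4.38-fold lower (3.99 to 4.81) and Apoc4 5.82-fold lower (4.83 to 7.05), against 2.89-fold lower (2.87 to 2.90) for Apoe. The counting intervals of the 3 Apoc ratios do not overlap that of Apoe. The share of cells with a UMI gave the same order of libraries. Apoc1 was found in 8.68% of knockout-labelled and 26.7% of wild-type injured microglia-like cells, Apoc2 in 11.9% and 32.9%, and Apoc4 in 3.36% and 14.4%. Thinned to 5000 UMIs these were 4.97% and 19.2% for Apoc1, 6.39% and 24.3% for Apoc2 and 1.64% and 8.86% for Apoc4. In endothelial-like cells Apoc1 was found in 0 of 124 cells in the knockout-labelled injured library, which allows a share of cells with a UMI of up to 2.42% at this depth (3 of 124 cells), and in 5.26% of 76 cells in the wild-type injured library.

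**Figure D2:**
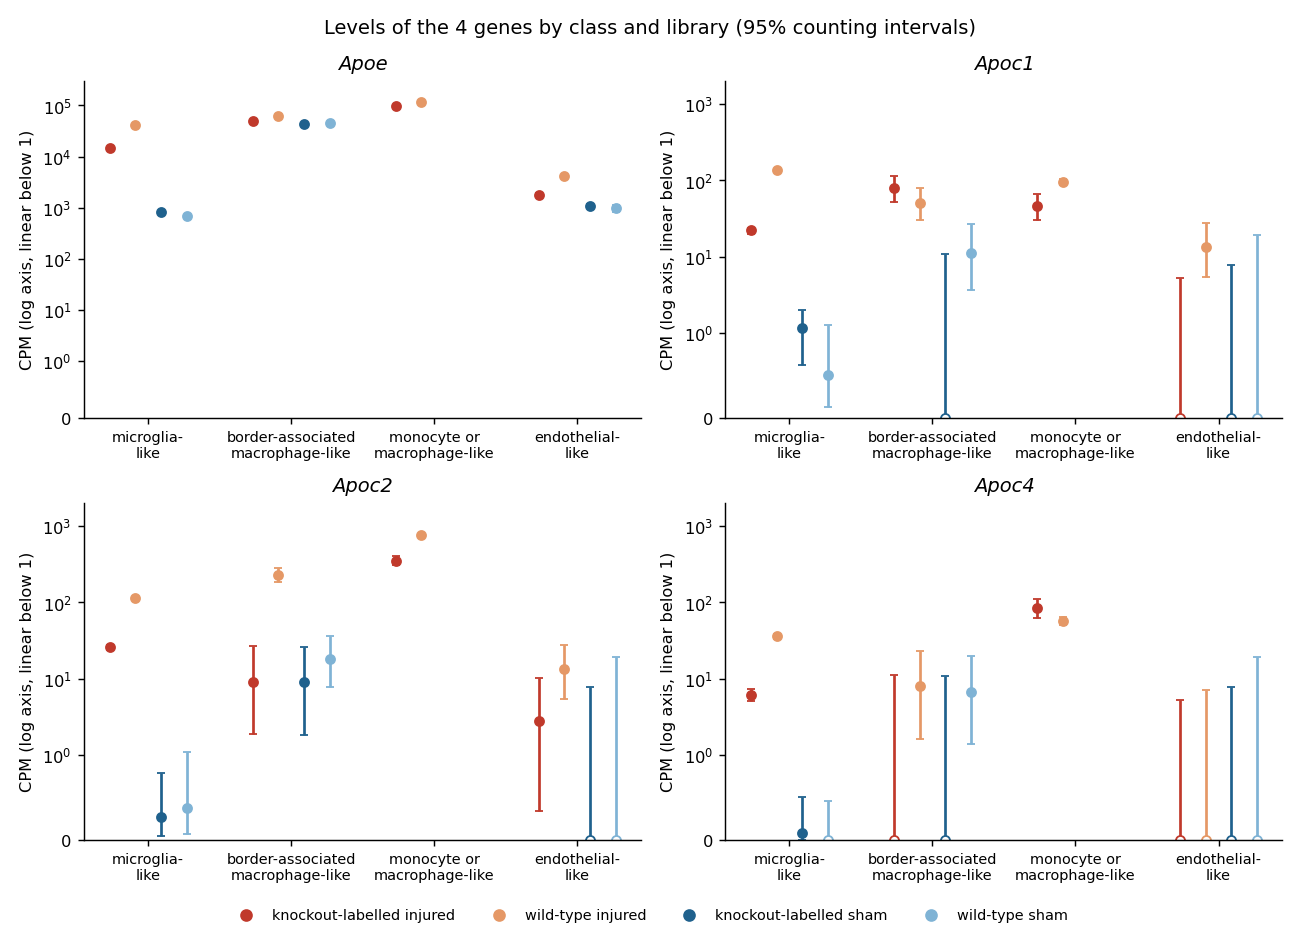
Level of each gene (y axis, CPM, logarithmic above 1 and linear below) in 4 classes, for the libraries with at least 20 cells of the class; bars are 95% counting intervals, and open points are classes with 0 UMIs. In microglia-like cells all 4 genes are higher in each injured library than in the sham library of the same label. Apoe in border-associated macrophage-like cells sits between 43132 and 61302 CPM in every library.

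Border-associated macrophage-like cells held a high Apoe level with or without injury. It was 48969 and 61302 CPM in knockout-labelled and wild-type injured cells, and 43132 and 44615 CPM in knockout-labelled and wild-type sham cells, from 48, 58, 50 and 61 cells. All 217 cells had Apoe. The ratio of injured to sham was 1.14 (1.11 to 1.16) with the knockout label and 1.37 (1.35 to 1.40) in wild type, 1.03 and 1.21 under the stricter gate, and 1.27 and 1.84 under the gate without a lead, so the size of the difference depends on the gate. In the same libraries the microglia-like ratios were 17.3 and 58.9. Before injury, these cells were 3.67% and 6.37% of knockout-labelled and wild-type sham cells and held 50.5% and 53.8% of all Apoe UMIs of those libraries. After injury they held 3.68% and 1.07% in the knockout-labelled and wild-type libraries.

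The Apoc genes were sparse in border-associated macrophage-like cells. Apoc1 had 26 and 19 UMIs in knockout-labelled and wild-type injured cells, and 0 and 5 UMIs in knockout-labelled and wild-type sham cells. With the knockout label the injured level, 79.1 CPM, was at least 8.81-fold higher than a floor of 3 UMIs over the sham cells. Of these 26 UMIs 16 came from 1 cell. Apoc2 had 3 UMIs in knockout-labelled injured cells and 86 in wild-type injured cells, 44 of them from 1 cell, against 3 and 8 in knockout-labelled and wild-type sham cells. Single cells thus set the Apoc levels of this class. Apoc4 had 0 to 3 UMIs in each library.

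Monocyte or macrophage-like cells of the injured mice held the highest Apoe levels of the classes with 20 or more cells. Apoe was at 98630 CPM in 37 knockout-labelled injured cells and at 114325 CPM in 290 wild-type injured cells, 11.4% of all their UMIs in wild type. The levels of the injured libraries lay closer together than in microglia-like cells, with medians of 1422 and 2116 Apoe UMIs per knockout-labelled and wild-type injured cell at median depths of 13508 and 16558.5 UMIs. The sham libraries held 4 such cells each, with Apoe at 2227 CPM in knockout-labelled and 1147 CPM in wild-type sham cells.

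In this class the balance of the cluster differed from that of microglia-like cells. Apoc2 was at 352 and 758 CPM in knockout-labelled and wild-type injured cells and found in 83.8% and 95.9% of them. Apoc1 was at 46.0 and 96.7 CPM, and Apoc4 at 85.0 and 57.6 CPM, in the same order. Per 1000 Apoe UMIs, the monocyte or macrophage-like cells held 3.57 (3.09 to 4.10) and 6.63 (6.42 to 6.84) Apoc2 UMIs in the knockout-labelled and wild-type injured libraries, against 1.79 (1.64 to 1.94) and 2.71 (2.61 to 2.83) in microglia-like cells. For Apoc1 the order of the classes was the opposite: 0.467 (0.305 to 0.684) and 0.846 (0.774 to 0.923) per 1000 Apoe UMIs in monocyte or macrophage-like cells, against 1.54 (1.40 to 1.68) and 3.32 (3.20 to 3.44) in microglia-like cells. Both orders held in both injured libraries, and the counting intervals do not overlap. For Apoc4 the order turned between the libraries: it was 0.861 and 0.504 per 1000 Apoe UMIs in knockout-labelled and wild-type injured monocyte or macrophage-like cells, against 0.428 and 0.863 in microglia-like cells. In wild-type injured endothelial-like cells the ratio was 3.31 (1.33 to 6.83) for Apoc1 and the same for Apoc2, from 7 UMIs each. The 4 wild-type sham cells of the monocyte or macrophage-like class held 30 Apoc2 UMIs beside 52 Apoe UMIs, and the 4 knockout-labelled sham cells 7 beside 90.

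Of the whole wild-type injured library, microglia-like cells held 40.3% of the Apoe UMIs, monocyte or macrophage-like cells 27.6% and ungated cells 30.4%. In the knockout-labelled injured library these were 71.1%, 12.7% and 10.7%. For Apoc2, microglia-like cells held 60.5% of the knockout-labelled and 23.2% of the wild-type injured library's UMIs, and monocyte or macrophage-like cells 21.7% and 38.8%. The 432 ungated wild-type injured cells held 87913 CPM of Apoe, between the levels of the 2 classes, so the limit between these classes bears on the wild-type values most.

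Other classes were small. Dendritic-like cells held 16616 and 3856 CPM of Apoe in the knockout-labelled and wild-type injured libraries, from 20 and 52 cells, against 203 and 20556 CPM in the knockout-labelled and wild-type sham libraries, from 1 and 5 cells. Astrocyte-like cells, few under a CD11b selection, held 21376 and 19600 CPM in 8 knockout-labelled and 10 wild-type injured cells, against 10239 and 11861 CPM in 6 knockout-labelled and 9 wild-type sham cells.

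Few genes next to the cluster could be compared. Within 300 kb of the Apoe start, 33 other annotated genes were in the matrices, and 7 were tested for injury with the knockout label and 8 in wild type. In none of the 4 comparisons did a tested neighbour reach 2-fold, which 7 or 8 genes could also give at the shares called over all genes (2.58% and 3.76% higher, 1.52% and 8.24% lower with injury), and their log2 ratios ran between -0.35 and 0.69. Tomm40, the mitochondrial import gene next to Apoe, had 45.3 and 38.5 CPM in knockout-labelled and wild-type injured microglia-like cells, against 46.3 and 47.3 CPM in knockout-labelled and wild-type sham cells. Clptm1, on the other side beyond Apoc2, had 82.9 and 78.6 CPM in knockout-labelled and wild-type injured cells, against 83.6 and 82.0 CPM in knockout-labelled and wild-type sham cells. The highest in both injury comparisons was Pvr, a cell adhesion receptor 222 kb away, at 0.69 in each.

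**Figure D3:**
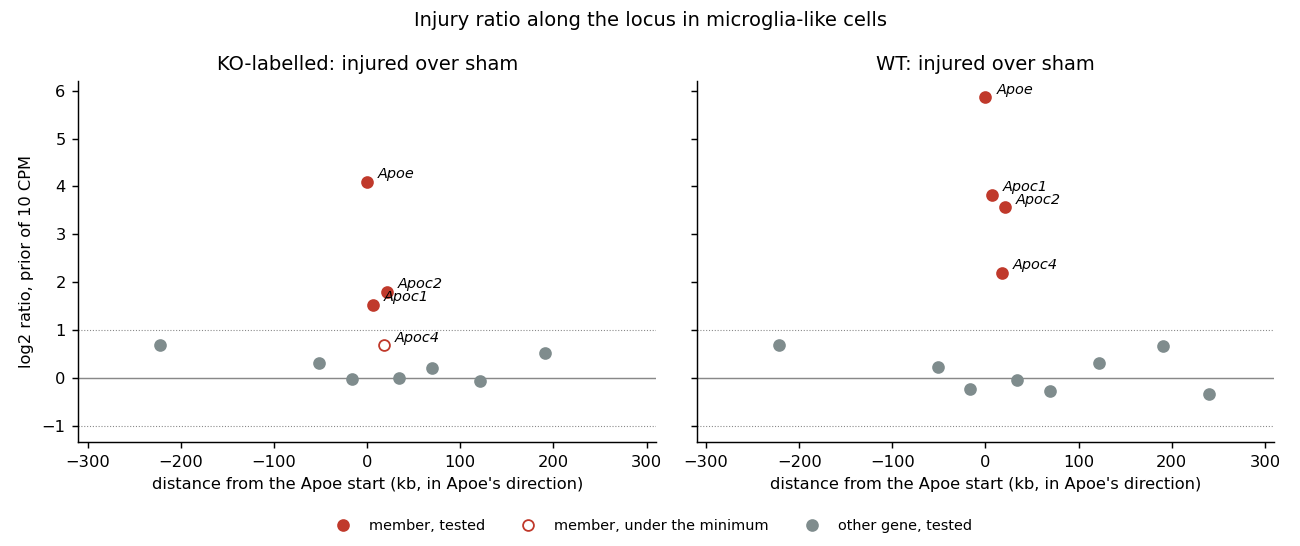
Injury log2 ratio in microglia-like cells (y axis, 10 CPM added to both levels) against the distance of each gene's start from that of Apoe (x axis, kb in Apoe's direction), with the knockout label (left) and in wild type (right). Red points are the 4 genes, open where under the minimum, grey points are other tested genes, and dotted lines mark 2-fold; the grey points lie between -0.34 and 0.69 in both panels.

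Co-detection was read across single microglia-like cells. All 4 genes were found together in 35 of 2144 knockout-labelled and 158 of 1920 wild-type injured cells, and in 0 of 1123 knockout-labelled and 0 of 689 wild-type sham cells. Any of the 3 Apoc genes was found in 353 and 831 cells of the knockout-labelled and wild-type injured libraries, and in 10 and 7 of the knockout-labelled and wild-type sham libraries. Among all these cells a single one, in the knockout-labelled injured library, had no Apoe UMI. Since nearly all injured cells held Apoe, the pairs among the Apoc genes tell more. Of the wild-type injured cells with Apoc4, 85.9% also held Apoc2 and 63.4% Apoc1; of the knockout-labelled injured cells with Apoc4, 73.6% held Apoc2 and 62.5% Apoc1.

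Odds ratios of co-detection (the odds of finding 1 gene where the other was found over the odds where it was not) were lower after thinning. For Apoc2 with Apoc4 they were 25.8 and 19.2 in knockout-labelled and wild-type injured microglia-like cells, and 11.4 and 5.67 when every cell was thinned to 5000 UMIs. Apoc1 with Apoc2 gave 12.4 and 7.13, thinned 5.62 and 3.36, and Apoc1 with Apoc4 22.8 and 6.69, thinned 10.6 and 3.01. All stayed above 1 at 5000 and at 2500 UMIs. In wild-type injured monocyte or macrophage-like cells, where most cells held Apoc2, the thinned odds ratios were 1.45 for Apoc1 with Apoc2, 1.34 for Apoc1 with Apoc4 and 1.29 for Apoc2 with Apoc4, and in the 37 knockout-labelled injured cells of this class 1.90, 3.53 and 1.94, in the same order. No test was made across cells, which share 1 mouse and library.

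Apoc levels followed Apoe from cell to cell in injured microglia-like cells. When the cells of a library were split into 4 equal groups (quartiles) by Apoe, Apoc1 was at 1.39, 4.51, 6.47 and 57.7 CPM with the knockout label, from the lowest to the highest quartile, and at 4.52, 14.8, 109 and 301 CPM in wild type. Apoc2 was at 2.31, 2.70, 11.3 and 65.4 CPM with the knockout label and at 5.43, 14.8, 104 and 230 CPM in wild type. Apoc4 was at 17.8 CPM in the highest quartile with the knockout label and at 83.5 CPM in wild type, with 0 to 0.539 CPM in the other knockout-labelled quartiles. The step was between the third and the highest quartile with the knockout label, and already between the second and the third in wild type. Median Apoe on the 2 sides of the step was 66.7 and 259 per 10000 UMIs with the knockout label. In wild type it was 90.8 and 316 per 10000. Whether the step lies at the same Apoe level in both libraries was not tested. Tomm40 did not follow: it was at 48.8, 47.1, 49.1 and 39.1 CPM with the knockout label and at 48.2, 48.5, 35.5 and 30.7 CPM in wild type. Median depth went with Apoe, at 7596.5 and 12085 UMIs in the lowest and highest quartile with the knockout label and 6224 and 13940 in wild type; CPM divides by depth, and its remaining part was not tested.

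**Figure D4:**
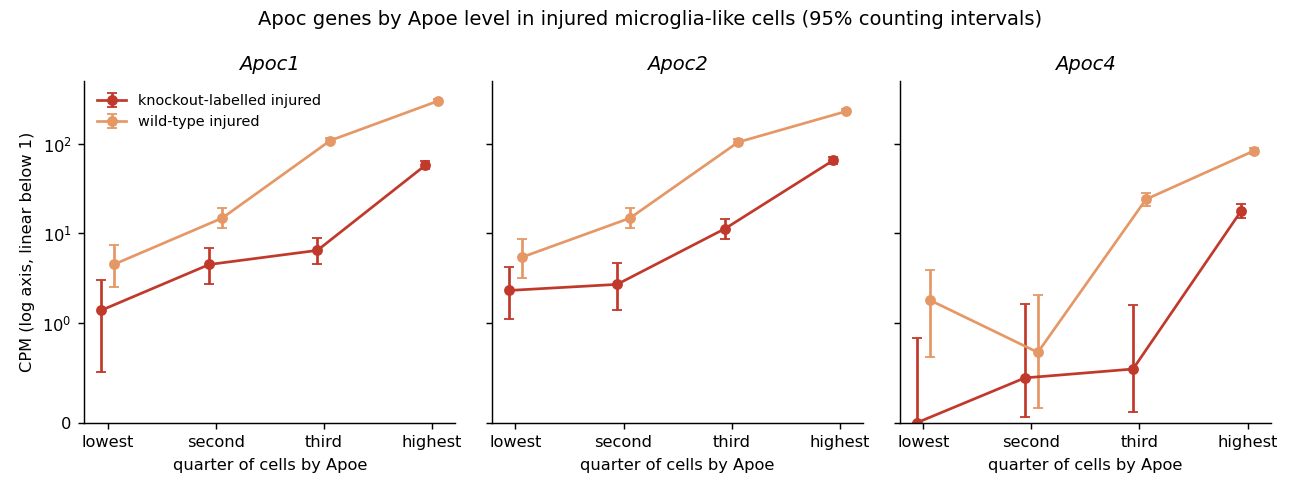
Levels of Apoc1, Apoc2 and Apoc4 (y axis, CPM, logarithmic above 1 and linear below) in quartiles of injured microglia-like cells ordered by Apoe (x axis), for the knockout-labelled injured and wild-type injured libraries; bars are 95% counting intervals. Apoc1 reaches 57.7 CPM in the highest knockout-labelled quartile and 301 CPM in the highest wild-type quartile.

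The cells with most Apoe also differed in known microglial state genes. P2ry12, a purine receptor of resting microglia and a marker of the gate, was at 668 CPM in the highest knockout-labelled quartile, against 1586 CPM in the lowest, and at 348 CPM in the highest wild-type quartile, against 1449 CPM in the lowest. Igf1, a growth factor gene, was at 214 and 517 CPM in the highest quartiles of the knockout-labelled and wild-type injured libraries, against 9.49 and 11.5 CPM in the lowest. Spp1, which encodes osteopontin, was at 2000 and 12453 CPM in those highest quartiles, against 231 and 274 CPM in the lowest. Lpl, the lipoprotein lipase that Apoc2 activates, behaved differently by library: it was highest in the highest knockout-labelled quartile, at 706 CPM, but in wild type in the third quartile, at 622 CPM, with 553 CPM in the highest. Lyz2, the leading monocyte and macrophage marker, went the same way as Apoe, at 2524 and 4014 CPM in the highest quartiles of the knockout-labelled and wild-type injured libraries, against 637 and 829 CPM in the lowest. Cells that gave Apoe 1% or more of their UMIs had a median border-associated macrophage score of 0.0149 with the knockout label and 0.0323 in wild type, against 0.00634 and 0.00725 in the other cells. They led the next class by 5.18 and 4.38 times, against 6.47 and 6.16 times. The part of cells of other classes in these differences was not tested.

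Cells were next split by lists of state genes that hold none of the 4 members. In the quartile of cells highest for 17 disease-associated genes, Apoe was at 26543 CPM with the knockout label and 60010 CPM in wild type, against 4019 and 11223 CPM in the lowest quartiles, ratios of 6.60 and 5.35. Apoc1 differed more, by 22.5 and 13.2 times, and Apoc2 by 29.9 and 15.9 times. Median depths were 13205 and 15448 UMIs in those highest quartiles and 7058.5 and 6077 UMIs in the lowest. The quartile highest for 8 homeostatic genes held Apoe at 2932 and 7314 CPM in the knockout-labelled and wild-type injured libraries, against 30294 and 66595 CPM in the lowest quartile. Of these 8 genes 7 are also markers of the microglia-like gate, so cells low for them lie nearer to its limit. The interferon list gave ratios of 2.84 and 1.35 with the knockout label and in wild type, cycling genes 1.21 and 0.917, MHC class II genes 1.06 and 0.634, and immediate inflammatory genes 0.773 and 0.758. In every one of these groups of cells Apoe was lower with the knockout label than in wild type. The quartiles were cut within each library, so a group need not be in the same state in both. Whether state differs between the libraries in a way that bears on Apoe was not tested.

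**Figure D5:**
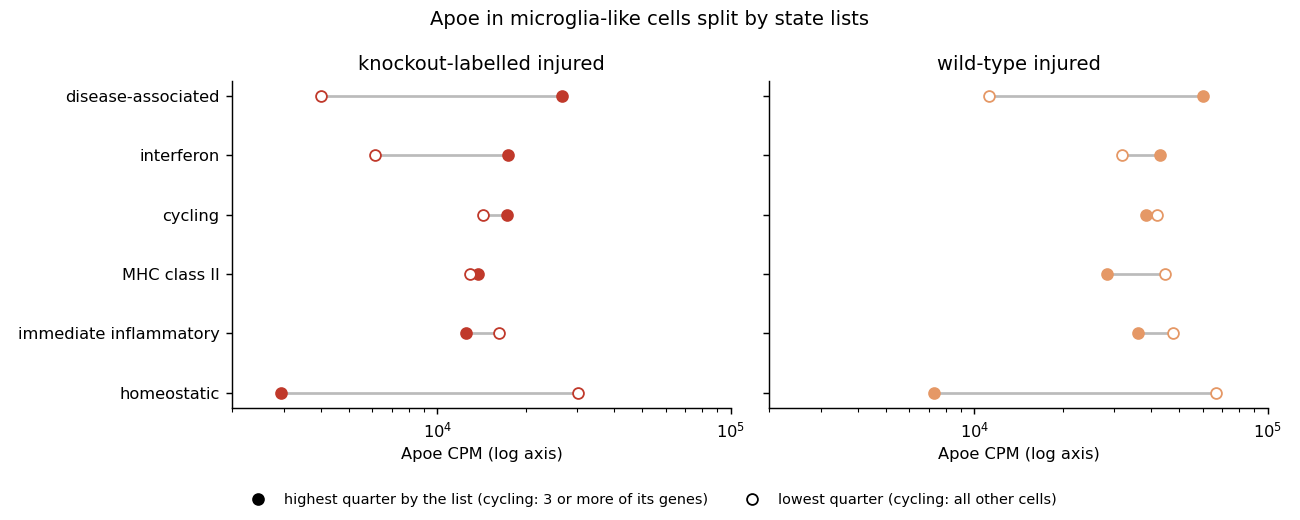
Apoe level (x axis, CPM, log axis) in injured microglia-like cells highest (filled) and lowest (open) for each state list, in the knockout-labelled injured (left) and wild-type injured (right) libraries; for cycling, filled points are cells with 3 or more of its genes and open points all others. The disease-associated and homeostatic lists separate the cells most, in opposite directions.

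Genes that act with apolipoprotein particles were followed in microglia-like cells by lists of genes. Among partners and enzymes of the particles, 3 of 6 tested genes were at least 2-fold higher in knockout-labelled injured than knockout-labelled sham cells, and 4 of 8 in wild type; none was lower, where 2.58% and 3.76% of all genes tested were called higher. The list medians were 0.62 and 1.02, against -0.21 and -0.30 over all genes tested. Ch25h in both labels and Pltp in wild type passed the minimum only through the injured library. At sham levels of 3.66 CPM or less they were bound to be called higher once tested. The shares over all genes do not bear on these calls. Lpl was at 400 and 472 CPM in knockout-labelled and wild-type injured cells, against 32.2 and 22.3 CPM in knockout-labelled and wild-type sham cells. Ch25h, which makes 25-hydroxycholesterol, an oxysterol ligand of LXR, was at 46.2 and 64.7 CPM in knockout-labelled and wild-type injured cells, against 1.63 and 1.26 CPM in knockout-labelled and wild-type sham cells. Npc2, a lysosomal cholesterol carrier, was 2.11-fold and 2.38-fold higher with injury. Pltp, which transfers phospholipids between particles, was at 6.88 and 32.5 CPM in knockout-labelled and wild-type injured cells. Between these it passed the minimum only through the wild-type library. It was the 1 gene of the list called lower with the knockout label. Lpl was not: its ratio of knockout-labelled to wild-type injured was 0.848.

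Receptors differed less. Of 6 tested apolipoprotein receptor genes 1 was 2-fold higher with injury in each label, where 2.58% and 3.76% of all genes were called higher: Lrpap1, the chaperone of LDL receptor family proteins, at 217 and 233 CPM in knockout-labelled and wild-type injured cells, against 99.8 and 95.7 CPM in knockout-labelled and wild-type sham cells. Lrp1, a main Apoe receptor, was at 226 and 224 CPM in knockout-labelled and wild-type injured cells, against 306 and 300 CPM in knockout-labelled and wild-type sham cells. Trem2, a microglial lipid sensor that binds Apoe, was 1.42-fold and 1.49-fold higher with injury, under the 2-fold rule. None of the 6 was called lower with injury, where 1.52% and 8.24% of all genes were, and none between the injured libraries, where 0.539% were called lower; with 6 genes, counts of 0 say little.

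Among LXR receptors and their known targets, 1 of 11 tested genes was 2-fold higher with injury with the knockout label and 3 of 12 in wild type, where 1 was lower. Over all genes tested 2.58% were called higher with the knockout label, and 3.76% higher and 8.24% lower in wild type, so the 1 lower gene of 12 is near the share over all genes. The list medians were -0.25 with the knockout label and 0.09 in wild type, against -0.21 and -0.30 over all genes tested. Of the genes called higher, Lpl and Pltp are also in the list of partners and enzymes above. Pltp, at 3.66 CPM in wild-type sham cells, was bound to be called higher once tested. Abca1 and Abcg1, the cholesterol exporters that load Apoe particles, were at 279 and 134 CPM in knockout-labelled injured cells, 385 and 190 CPM in wild-type injured cells, 216 and 96.0 CPM in knockout-labelled sham cells and 226 and 87.5 CPM in wild-type sham cells. Abcg1 was called in wild type at 2.17-fold. Mertk, a receptor for the uptake of dying cells, was the gene called lower, at 203 CPM in wild-type injured against 475 CPM in wild-type sham cells. Nr1h2, the LXR-beta gene, was at 40.8 and 36.1 CPM in knockout-labelled and wild-type injured cells, against 50.4 and 44.9 CPM in knockout-labelled and wild-type sham cells. Of 8 tested transcription factor genes only Jun was called, lower with injury in both labels, at 2303 and 1815 CPM in knockout-labelled and wild-type injured cells, against 4682 and 4753 CPM in knockout-labelled and wild-type sham cells. Over all genes 1.52% with the knockout label and 8.24% in wild type were called lower, and 1 of 8 in wild type is near that share. None of 22 other apolipoprotein genes reached the minimum to be tested.

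The genes whose pattern was most like that of Apoe were named by 2 measures. Over the 11 class and library points with at least 50 cells, which share libraries, Rab7b had the highest correlation with Apoe of log2 levels (r = 0.967), followed by Igf1 (0.964), Gabarap (0.955) and Cstb (0.941). With points of 20 or more cells, 17 in all, 2 of the first 10 genes stayed in the first 10, Rab7b and Igf1. Apoc2 ranked 72nd at 0.795, Apoc4 176th at 0.693 and Apoc1 284th at 0.612, of 5558 genes. Across single injured microglia-like cells, over 6825 genes found in at least 10% of cells of both libraries, the highest mean correlation was that of Lyz2, at 0.559 with the knockout label and 0.649 in wild type. Ctsb and Ctsd, lysosomal proteases, followed at 0.508 and 0.687 and at 0.485 and 0.615. Apoc2, ranked by mean correlation beside them, gave 0.388 and 0.558 and was the 6th highest. Apoc1 and Apoc4, found in 8.68% and 3.36% of knockout-labelled injured cells, were under the 10% minimum and not ranked. Apoc1 gave 0.307 and 0.420 with the knockout label and in wild type, and Apoc4 0.259 and 0.377. Plin2, a lipid droplet coat gene, and Fabp5, a fatty acid carrier, were also among the first 10. At the other end were Cst3, a protease inhibitor highly expressed by resting microglia, at -0.467 and -0.691, and Selplg, at -0.469 and -0.653. These correlations share depth and library and describe these cells.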

How the data were processed

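CD11b+ mouse brain cells of 4 groups, 1 library each, were measured by 10x 3′ single-cell RNA sequencing. The deposited matrices hold whole-number UMI counts that were not normalized; the submitters' processing notes name Cell Ranger 6.0.1 and the mm10 build. Libraries held 2682 to 4731 barcodes and 15222380 to 40336067 UMIs. Barcodes with at least 500 genes, 1000 UMIs and at most 10% mitochondrial UMIs were kept, and the highest Scrublet scores (scanpy 1.11.5) left out at 0.8% per 1000 barcodes. A class needed a mean marker score of 0.1, 3 markers and a lead of 1.5 times; these limits, on which every level by class rests, were set after the cells were seen and with the members' levels by class on view. The 4 members and all gene lists were chosen with earlier results of these data known.

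Levels are summed UMIs as CPM. Ratios have exact binomial intervals, shares Clopper-Pearson intervals (a share of 0 has an upper limit of 3 counts instead) and levels Poisson intervals, all 95%. Genes were called at 2-fold with 10 CPM added, which understates low genes, at 20 CPM in 1 library and 50 UMIs over 4. Named genes were the members, the 10 most like Apoe by either correlation, the 5 least like it across cells, and list genes by role or past 2-fold. With 1 library per group no test was run. The fold rule and intervals were tested on simulated data.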

Additional observations from a re-analysis of the deposited data

Results flagged for a closer look

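The ratio of knockout-labelled to wild-type Apoe levels in microglia-like cells lay on opposite sides of 1 after injury and after sham surgery. It was 0.347 after injury, from 14436 CPM in knockout-labelled and 41656 CPM in wild-type injured cells, and 1.18 after sham surgery, from 833 CPM in knockout-labelled and 707 CPM in wild-type sham cells. The difference was not tested, each group being 1 library. Both sham levels were below those of endothelial-like cells in the same libraries.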

How the results depend on the processing

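Apoe log2 ratios in microglia-like cells were 4.10 for injury with the knockout label, 5.86 for injury in wild type, -1.53 between the injured and 0.23 between the sham libraries. In that order they were 4.43, 6.31 and -1.64 with median-of-ratios scaling for the first 3, and 3.99, 5.52, -1.56 and -0.022 with cells weighted equally. Leaving the members out of the total gave 5.92 in wild type and -1.57 between the injured libraries. A stricter cell filter gave 4.31, 6.05 and -1.46 for the first 3. Keeping doublets gave 5.58, -1.60 and -0.11 for the last 3. A stricter gate gave 3.90, 5.62, -1.35 and 0.37, and no gate 2.99, 3.98, -1.79 and -0.79, with Apoc1 between the shams at -0.22. Subtracting the endothelial-like level, which may hold more than free RNA, gave 10.30, 11.87, -1.57 and 0. Both shams are then at 0, so the injury values rest on the added 10 CPM. Chosen after seeing the data, leaving out shared barcodes gave 4.43, 6.00, -1.54 and 0.033, and a gate without a lead 4.05, 5.50, -1.64 and -0.19. The direction between the shams thus turned under 4 settings; the cause was not tested. Median-of-ratios scaling called 269 genes higher and 29 lower for injury with the knockout label (158 and 93 by CPM) and 493 and 120 in wild type (234 and 513), and moved the median of all tested genes from -0.21 and -0.30 to 0.05 and 0.05. Over all values and counts recomputed under these settings, 113 stayed within the counting interval or within 1.5 times the count, 103 moved further and 5 changed sign. No paired analysis was possible because each group is 1 library. Depth limits the sham Apoc ratios, which rest on 0 to 13 UMIs.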
